A study of Mus musculus with 6 samples.

Results

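The glycolysis and pentose phosphate genes described here are 33 genes chosen by function: glucose carriers, the enzymes of each step of glycolysis with their isoforms, the enzymes that set fructose 2,6-bisphosphate, lactate dehydrogenases, phosphoglucomutases, pentose phosphate enzymes and Pdha1. Each was found in the deposited gene table by its symbol, which gave 33 of the table's 19162 genes, and all 33 had enough reads to be tested. Their RNA was measured in bone marrow cells of C57BL/6J mice held for 4 days in 40 ng/mL of GM-CSF, a growth factor of granulocytes and macrophages. The KCl group had 34.7 mM of potassium chloride added and the control group had none, with 3 libraries in each (numbered 1, 2 and 4). Both groups carry the same GM-CSF treatment, the age of the mice was not given, and the series calls the cells bone marrow-derived myeloid-derived suppressor cells. No group given another salt or solute was analysed here.

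Glycolysis splits glucose into pyruvate in the cytosol. Glucose enters through carriers of the GLUT family, is trapped by hexokinase, is committed to breakdown by phosphofructokinase, and leaves as pyruvate through pyruvate kinase, after which lactate dehydrogenase turns pyruvate into lactate and restores NAD+. The pentose phosphate pathway branches off at glucose 6-phosphate, makes NADPH in its oxidative steps, and rearranges sugars in its non-oxidative steps. Neutrophils and activated monocytes and macrophages are known to rely on both, with NADPH feeding the oxidative burst and the defence against oxidants.

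Library totals were 17814232 to 18933948 counts in KCl and 14118724 to 21694831 in control. The 33 genes took 1.40%, 1.51% and 1.40% of all counts in KCl 1, 2 and 4 and 1.34%, 1.38% and 1.42% in control 1, 2 and 4. The means were 1.44% ± 0.066 in KCl and 1.38% ± 0.040 in control (SD, n = 3 each), so the difference of 0.0556 percentage points was within the spread of the KCl libraries. KCl 4 and control 4 stand apart from the rest. Over the 8231 genes whose counts averaged 300 or more, the mean CPM of this pair (counts scaled to library size) followed the mean of the other 4 libraries with an SD of 0.00953 on the log2 scale, where counting noise alone gives 0.0441. Among the 30 glycolysis and pentose phosphate genes at that depth the largest deviation was 0.0257. The 6 libraries are thus not independent, p-values that use all 6 may be too small, and each called gene of the 33 is also given without this pair. In bulk RNA, fewer cells of a type and less RNA per cell cannot be told apart.

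Of the 33 genes, 7 passed the test as higher in KCl, which is 21.2% against 12.4% of all 13326 genes tested. Only Tpi1 passed as lower, which is 3.03% against 10.5% of all genes, and 25 did not pass. In either direction the share was 24.2%, against 22.9% of all genes. The median log2 fold change (KCl minus control) was 0.01 over the 33 genes and -0.00 over all genes. The 7 higher genes were the carrier gene Slc2a6, the hexokinase genes Hk1 and Hk3, the pyruvate kinase gene Pkm, the lactate dehydrogenase gene Ldhb and the pentose phosphate genes Pgd and Rpe. Calls came from the quasi-likelihood test of edgeR, at an adjusted p of 0.05 over all tested genes. Ldhb alone of the 33 both passed and changed by at least 1.5-fold, as did 9.03% of all genes. Without KCl 4 and control 4, 0 of the 33 genes passed in edgeR, where 0.458% of all genes did. In that smaller comparison 12 of the 33 had an unadjusted p under 0.05 (10 higher and 2 lower, where 16.2% of all genes were higher and 13.6% lower at that threshold), DESeq2 called 4 (Hk3, Pkm, Aldoc and Slc2a1, all higher, where it called 8.54% of all genes) and limma-voom called 0 (0.362% of all genes). All 8 genes called with 6 libraries kept their sign there. This was fixed in advance, since their KCl and control libraries did not overlap. With replicate 4 as a batch term, added after the data were seen, edgeR called 2 of the 33 higher (Hk1 and Hk3) and 0 lower, where 6.92% and 4.89% of all genes were called in these directions (11.8% in either), and at an unadjusted p under 0.05 there were 7 of the 33 higher and 3 lower, against 15.1% and 13% of all genes.

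**Figure D1:**
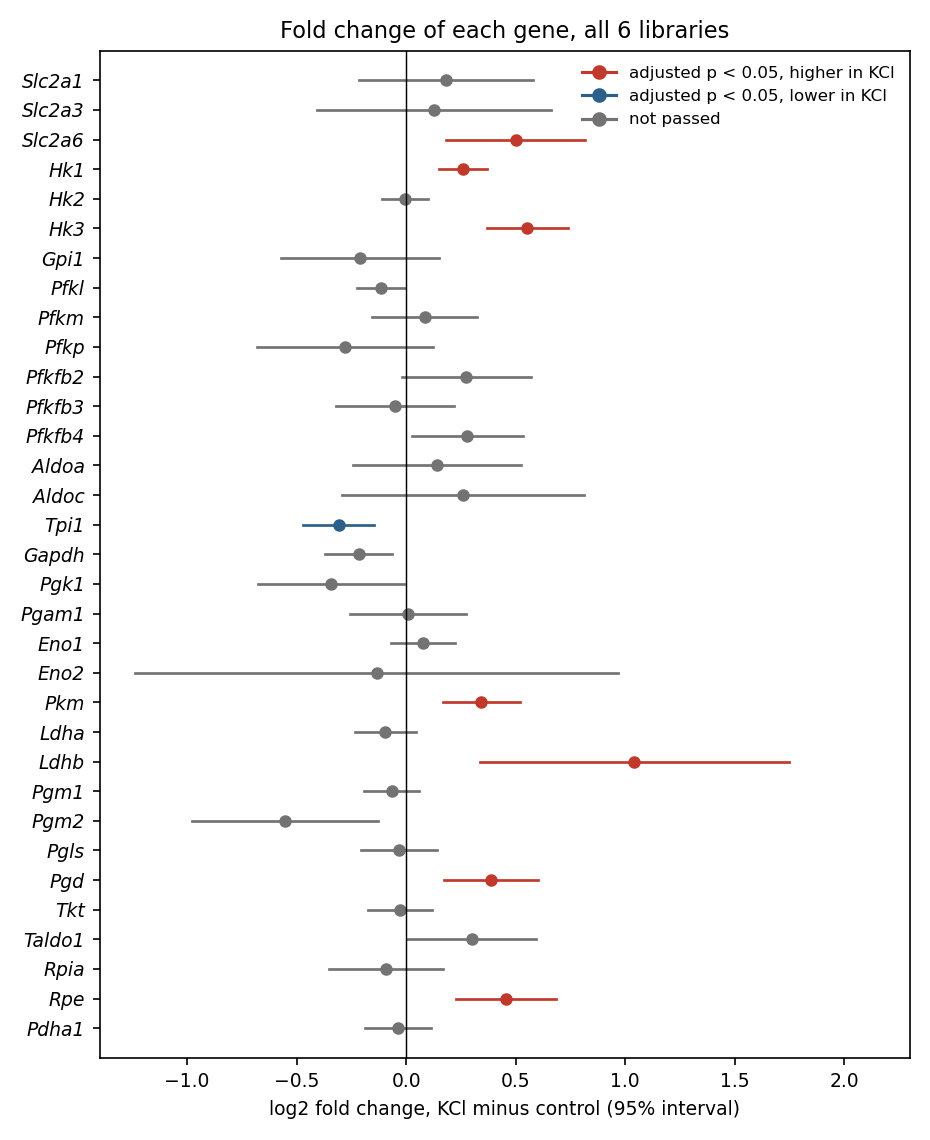
Log2 fold change (KCl minus control, x axis) of each of the 33 genes in the order of the pathway, with points for the fitted value and lines for its 95% interval, in red where higher and in blue where lower past an adjusted p of 0.05. Red points run from 0.26 (Hk1) to 1.04 (Ldhb), the blue point is Tpi1 at -0.31, and the 25 grey genes lie on both sides of 0.

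The groups did not overlap, with every KCl library above every control library, for 8 of the 33 genes (24.2%, against 20.2% of all tested genes). These were the 7 called genes and Pfkfb4. Every KCl library lay below every control library for 4 genes (12.1%, against 18.4%), namely Pfkl, Tpi1, Gapdh and Pgm2. The other 21 overlapped. In either direction 12 of the 33 did not overlap, against 38.5% of all tested genes.

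Levels per length were compared in FPKM, the deposited unit scaled to gene length and library size. Pkm had the highest level, at 1072 ± 55.8 FPKM in KCl and 859 ± 14.6 FPKM in control (mean ± SD, n = 3 each). Pgam1 followed at 430 ± 44.4 FPKM in KCl and 434 ± 31.3 FPKM in control. Ldha, Pgk1, Aldoa and Taldo1 lay close together, with group means between 197 and 299 FPKM. Their libraries overlapped in part, but in control every Ldha and Pgk1 library was above every Taldo1 library. Tkt, Pgd and Tpi1 had group means of 105 to 162 FPKM. The lowest level was that of Eno2, the neuronal enolase, at 0.236 ± 0.077 FPKM in KCl and 0.267 ± 0.132 FPKM in control. These levels depend on the gene lengths behind the deposited FPKM, which ran from 0.52 (Pkm) to 2.74 (Eno2) of the GENCODE M21 exon length. With the exon lengths and all 6 libraries Pkm was again highest, at a mean of 502 FPKM, but Aldoa came next at 455 FPKM, above Pgam1 at 399 FPKM, so the order below Pkm depends on the lengths used. Levels are also uncertain where reads could be split with pseudogene copies, which are given below for some genes.

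**Figure D2:**
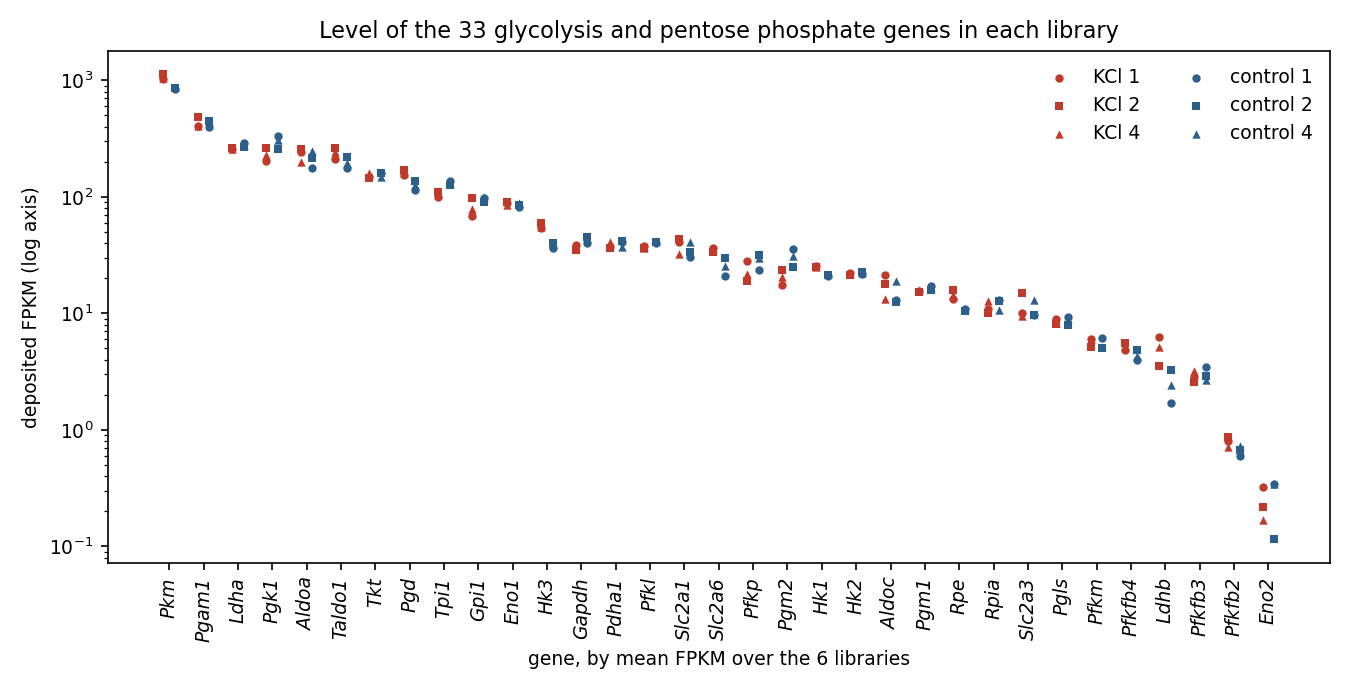
Deposited FPKM (log axis) of each of the 33 genes in each library, KCl in red on the left and control in blue on the right of each gene, with a marker shape for each replicate number. Levels span from about 1072 FPKM for Pkm in KCl to 0.236 FPKM for Eno2 in KCl, and the range across genes is far wider than the difference between the groups of any 1 gene.

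Promoter sequences were read for the genes that carry these results. RefSeq (GRCm38.p6) had windows for 32 of the 33 genes. The 250 bases before the start site are printed, 5′ to 3′ on the gene's own strand, for 3 genes called higher (Hk3, Slc2a6 and Rpe) and, for contrast, for Pgk1 and Ldha, which are textbook targets of the hypoxia-inducible factor HIF-1 and did not pass. Capitals mark ACGTG, a form of the core of the hypoxia response element, and CACGTG, the E-box, on either strand. Other forms of that core, such as GCGTG, were not sought and are not marked.
Hk3 chr13:55021386-55021635, minus strand: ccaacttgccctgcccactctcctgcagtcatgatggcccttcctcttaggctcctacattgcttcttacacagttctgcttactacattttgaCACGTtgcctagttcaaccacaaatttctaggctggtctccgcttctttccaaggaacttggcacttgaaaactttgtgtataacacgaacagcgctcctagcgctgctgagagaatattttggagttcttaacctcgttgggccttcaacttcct
Slc2a6 chr2:27027999-27028248, minus strand: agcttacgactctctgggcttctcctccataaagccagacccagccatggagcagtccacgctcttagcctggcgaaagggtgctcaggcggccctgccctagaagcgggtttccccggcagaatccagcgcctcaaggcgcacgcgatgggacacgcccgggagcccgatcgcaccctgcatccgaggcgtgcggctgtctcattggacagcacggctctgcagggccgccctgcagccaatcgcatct
Rpe chr1:66700581-66700830, plus strand: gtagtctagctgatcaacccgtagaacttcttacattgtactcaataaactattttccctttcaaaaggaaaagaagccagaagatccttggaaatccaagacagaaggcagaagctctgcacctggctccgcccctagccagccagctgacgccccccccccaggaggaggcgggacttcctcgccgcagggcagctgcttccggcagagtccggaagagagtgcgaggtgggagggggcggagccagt
Pgk1 chrX:106186850-106187099, plus strand: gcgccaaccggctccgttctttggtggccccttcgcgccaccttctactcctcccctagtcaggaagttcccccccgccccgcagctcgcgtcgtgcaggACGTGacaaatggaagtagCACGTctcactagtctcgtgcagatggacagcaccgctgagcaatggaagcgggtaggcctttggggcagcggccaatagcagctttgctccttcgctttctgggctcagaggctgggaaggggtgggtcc
Ldha chr7:46845554-46845803, plus strand: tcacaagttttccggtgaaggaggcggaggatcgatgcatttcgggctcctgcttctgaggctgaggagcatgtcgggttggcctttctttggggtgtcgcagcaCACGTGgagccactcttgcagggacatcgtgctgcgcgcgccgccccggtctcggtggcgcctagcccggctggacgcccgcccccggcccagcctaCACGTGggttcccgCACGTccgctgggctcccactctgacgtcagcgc
The Hk3 window holds 1 ACGTG and the Pgk1 window 2. The printed Ldha window holds 5, of which 4 come from its 2 E-boxes, since CACGTG contains ACGTG on each strand. Another RefSeq window of Ldha, chr7:46846832-46847081, is not printed and holds neither ACGTG nor CACGTG. The Slc2a6 and Rpe windows hold neither ACGTG nor CACGTG, which does not speak for the forms that were not sought.

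Across the 32 genes, 13 had ACGTG in a window (40.6%, against 18.5% of 27025 genes in the same table), and 4 had CACGTG (12.5%, against 6.9%). The letters TGACNNNGC, the core of the antioxidant response element bound by NRF2, were in 3 (9.4%, against 11.5%). All motifs were sought on both strands. A gene with more windows has more chances of a match, and the genes compared were not matched for base composition. Counted by window, ACGTG was in 17 of the 47 windows of these genes (36.2%, against 16.6% of 32851 windows). Some windows overlap exons, as the window of the table's Pgm2 over all 250 bases and the Pkm window with ACGTG over 140 bases. Of the 8 genes that passed the test, 2 had ACGTG (Hk3 and Pkm), and of the other 24 with a window 11 had it. A match describes the letters in a window and is not a binding site.

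Slc2a6, which encodes GLUT6, a carrier found on internal membranes, stood at 181, 175 and 176 CPM in KCl 1, 2 and 4, against 102, 148 and 126 CPM in control 1, 2 and 4 (CPM scaled by edgeR's TMM method). The KCl libraries were close together and all above the control libraries, which were spread. Its log2 fold change was 0.50 ± 0.13 (SE, n = 3 per group), with an adjusted p of 0.0399 in edgeR. The call was lost without control 4 or any 1 KCl library (edgeR adjusted p from 0.0958 to 0.114), and the log2 fold change was 0.51 ± 0.19 without the replicate 4 pair. The ubiquitous carrier gene Slc2a1 (GLUT1) stood at 211, 237 and 169 CPM in KCl, against 156, 173 and 215 CPM in control. Slc2a3 (GLUT3) stood at 110.1, 170.2 and 103 CPM in KCl, against 105, 105 and 140.4 CPM in control. Both overlapped between groups and did not pass (edgeR adjusted p of 0.544 and 0.736).

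Hk3, the hexokinase most typical of myeloid cells, had the lowest adjusted p of the 33 genes. It stood at 325, 376 and 332 CPM in KCl, against 219, 243 and 242 CPM in control. All KCl libraries lay above all control libraries by a margin wider than the spread in either group. The log2 fold change was 0.55 ± 0.08 (1.47-fold; edgeR adjusted p = 0.00611), and 0.60 ± 0.11 without the replicate 4 pair. Hk1, the housekeeping hexokinase that sits on mitochondria, stood at 316, 323 and 306 CPM in KCl, against 259, 263 and 268 CPM in control. The groups were again apart, by a smaller change of 0.26 ± 0.05 on the log2 scale (edgeR adjusted p = 0.0110), and 0.29 ± 0.07 without the replicate 4 pair. Hk1 and Hk3 were the members of the 8 that kept their call when any 1 library was left out (edgeR adjusted p of at most 0.0497 for Hk1 and 0.0268 for Hk3). Hk2, the hexokinase that growth signals and hypoxia are known to induce, stood at 151, 151 and 149 CPM in KCl, against 147, 155 and 151 CPM in control. Its 95% interval ran from -0.11 to 0.10 on the log2 scale. Within the FPKM of the 3 hexokinase genes, Hk3 took 54.3% ± 1.68 in KCl and 47.0% ± 0.95 in control, while Hk2 took 21.2% ± 0.95 in KCl and 27.0% ± 0.483 in control (SD, n = 3 each).

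In mm10 coordinates, Hk3 (ENSMUSG00000025877) spans bases 55005985 to 55021385 of chromosome 13 and Hk1 (ENSMUSG00000037012) bases 62268855 to 62379908 of chromosome 10. Slc2a6 (ENSMUSG00000036067) spans bases 27021363 to 27027998 of chromosome 2, and Pgd (ENSMUSG00000028961) bases 149149991 to 149166771 of chromosome 4. Chromosome 6 holds Tpi1 (ENSMUSG00000023456) at 124810586 to 124814296 and Ldhb (ENSMUSG00000030246) at 142490249 to 142507957. These 6 genes are read from the minus strand. Pkm (ENSMUSG00000032294), at 59656368 to 59679375 of chromosome 9, and Rpe (ENSMUSG00000026005), at 66700831 to 66719805 of chromosome 1, are read from the plus strand. GENCODE M21 lists all 8 as protein-coding, and each count is for the whole gene.

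**Figure D3:**
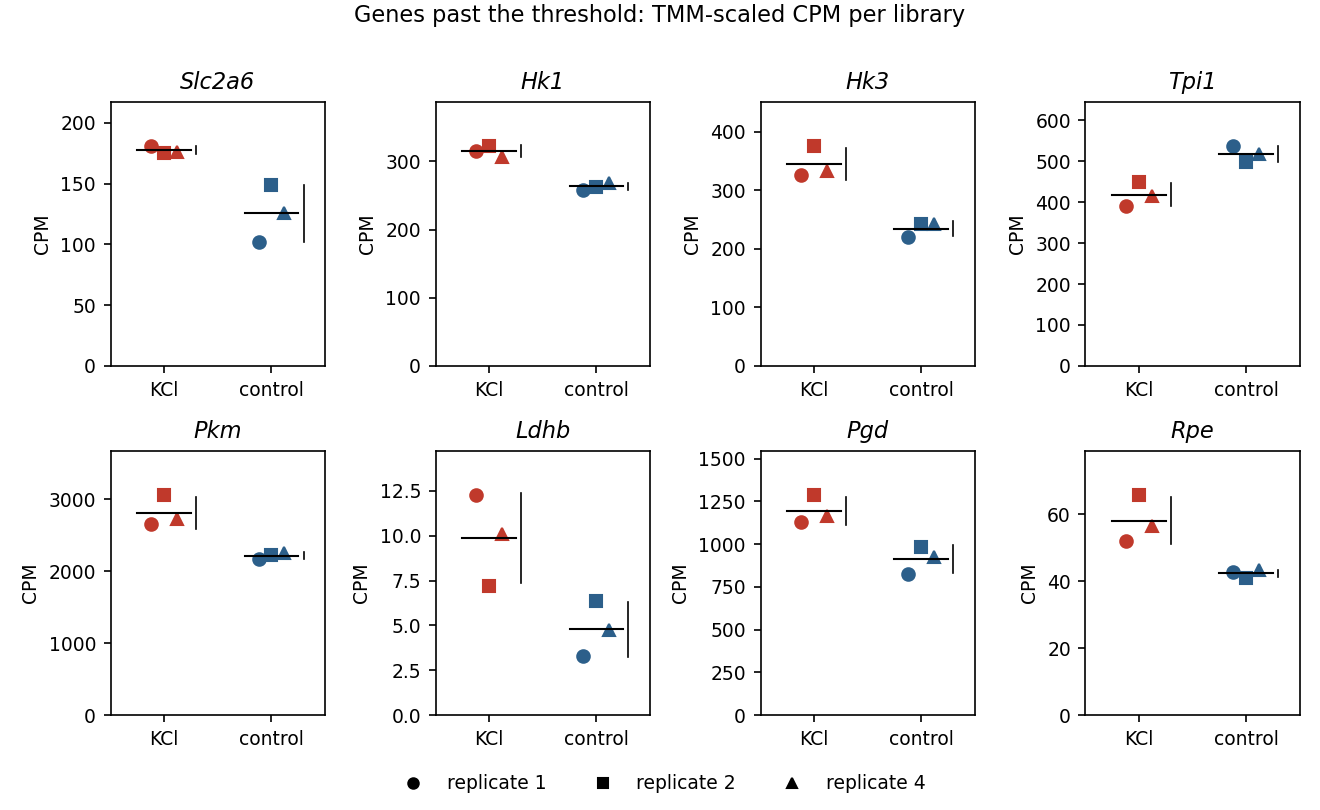
TMM-scaled CPM of the 8 genes past the threshold, 1 panel each with an axis from 0, KCl on the left and control on the right; points are libraries, horizontal lines group means and vertical lines ± 1 SD. The 3 KCl libraries lie above the 3 control libraries in 7 panels and below them for Tpi1, and for Ldhb the nearest libraries, at 7.22 CPM in KCl and 6.36 CPM in control, are close.

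The step that commits sugar to glycolysis showed no called gene. Pfkl, the liver-type phosphofructokinase and the main isoform here, stood at 185, 184 and 177 CPM in KCl, against 192, 199 and 201 CPM in control. The groups did not overlap, but by a narrow gap, and the log2 fold change of -0.12 ± 0.05 did not pass (edgeR adjusted p = 0.126, and 0.0433 with upper-quartile scaling). Pfkl took 56.6% ± 3.68 of the FPKM of the 3 phosphofructokinase genes in KCl and 54.9% ± 2.23 in control. The platelet isoform gene Pfkp (log2 fold change -0.28 ± 0.17) and the muscle isoform gene Pfkm (0.08 ± 0.10) overlapped between groups. Pfkfb4, one of the bifunctional enzymes that set fructose 2,6-bisphosphate, the activator of phosphofructokinase, stood at 41.9, 50.2 and 45 CPM in KCl, against 33.8, 41.8 and 37.3 CPM in control. Its lowest KCl library was barely above its highest control library, and its change of 0.28 ± 0.10 did not pass (edgeR adjusted p = 0.112). Pfkfb3 (-0.05 ± 0.11) and Pfkfb2 (0.28 ± 0.12) did not pass either. Gpi1, which interconverts glucose 6-phosphate and fructose 6-phosphate, ranged from 618 to 928 CPM in KCl and from 826 to 906 CPM in control. It had no call with all libraries (log2 fold change -0.21 ± 0.15), but passed as lower without KCl 2, its highest library (-0.39; edgeR adjusted p = 0.0391).

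Below the split of the sugar, Tpi1, the triose phosphate isomerase, was the called gene that was lower. It stood at 391, 448 and 415 CPM in KCl, against 538, 499 and 517 CPM in control. All KCl libraries were below all control libraries, and the log2 fold change was -0.31 ± 0.07 (0.808-fold; edgeR adjusted p = 0.0209). The call was lost without KCl 4, control 1 or control 4 (0.0523 to 0.0813 in edgeR), and the value without the replicate 4 pair was -0.30 ± 0.10. Gapdh, the next enzyme and a common reference gene, stood at 329, 311 and 312 CPM in KCl, against 343, 391 and 371 CPM in control. Its groups were apart, yet its change of -0.22 ± 0.06 just missed the threshold (edgeR adjusted p = 0.0557). It passed as lower with upper-quartile scaling (0.0326), in DESeq2 (0.0429) and without control 1 (0.0323). The reference genome holds 169 pseudogene copies of Gapdh of at least 300 bases at 90% identity, and 2 of Tpi1, so both counts are uncertain where reads could be split between copies.

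Pgk1, phosphoglycerate kinase, which makes the first ATP of the pathway, stood at 621, 828 and 688 CPM in KCl, against 1007, 779 and 927 CPM in control. KCl 2 was above control 2, so the groups overlapped, and the change of -0.34 ± 0.14 did not pass (edgeR adjusted p = 0.135). Pgam1, phosphoglycerate mutase, stood at 732, 914 and 736 CPM in KCl, against 722, 808 and 837 CPM in control, with a 95% interval from -0.25 to 0.27 on the log2 scale. Eno1, the main enolase with 99.7% of the FPKM of Eno1 and Eno2 in each group, stood at 695, 739 and 666 CPM in KCl, against 642, 660.5 and 688 CPM in control. The Eno1 interval ran from -0.07 to 0.22, and both genes overlapped between groups. Pseudogene copies by the same definition numbered 4 for Pgk1, 3 for Pgam1 and 5 for Eno1.

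At the exit of glycolysis, Pkm, the gene of the M1 and M2 pyruvate kinases, was higher in KCl. It stood at 2649.7, 3060.1 and 2724 CPM in KCl, against 2166, 2226 and 2255 CPM in control. The control libraries were close together and all KCl libraries were above them. The log2 fold change was 0.34 ± 0.07 (1.27-fold; edgeR adjusted p = 0.0194), and 0.38 ± 0.12 without the replicate 4 pair. Leaving out KCl 4, control 1 or control 4 ended the call (0.0531 to 0.0746 in edgeR). Gene counts do not separate the M1 and M2 transcripts, and 8 pseudogene copies of Pkm exist.

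Ldha, the lactate dehydrogenase subunit that favours lactate (13 pseudogene copies), stood at 1164, 1247 and 1171 CPM in KCl, against 1313, 1228 and 1284 CPM in control. The groups overlapped through KCl 2 and control 2, and the 95% interval of the change ran from -0.23 to 0.04. Ldhb, the subunit typical of the heart, was scarce, at 12.3, 7.22 and 10.1 CPM in KCl, against 3.28, 6.36 and 4.73 CPM in control. It had the largest fold change of the 33 genes, 1.04 ± 0.29 on the log2 scale (2.06-fold; edgeR adjusted p = 0.0484). That call was lost without control 1, control 4, KCl 1 or KCl 4 (0.114 to 0.138 in edgeR) and under several scalings, and without the replicate 4 pair the change was 1.01 ± 0.42. Ldhb took 1.90% ± 0.537 of the FPKM of the 2 subunit genes in KCl and 0.875% ± 0.308 in control. Pdha1, the pyruvate dehydrogenase subunit that passes pyruvate carbon into mitochondria, stood between 151 and 165 CPM in KCl and between 151 and 168 CPM in control, with an interval from -0.19 to 0.11.

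In the pentose phosphate pathway, Pgd, the dehydrogenase that makes NADPH in the second oxidative reaction, was higher in KCl. It stood at 1130.0, 1289 and 1164 CPM in KCl, against 824, 987 and 925 CPM in control. All KCl libraries were above all control libraries, and the log2 fold change was 0.39 ± 0.09 (1.31-fold; edgeR adjusted p = 0.0251). The call was lost when control 1, control 4, KCl 2 or KCl 4 was left out (0.0512 to 0.0792 in edgeR), and without the replicate 4 pair the change was 0.42 ± 0.13. Pgls, the lactonase between the oxidative reactions, did not pass (-0.03 ± 0.07).

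Among the non-oxidative enzymes, Rpe, ribulose phosphate epimerase, stood at 52.0, 65.8 and 56.6 CPM in KCl, against 42.8, 41.1 and 43.2 CPM in control. The control libraries were nearly equal and every KCl library was above them. The log2 fold change was 0.46 ± 0.09 (1.37-fold; edgeR adjusted p = 0.0184), and the call was lost without KCl 4 or any 1 control library (0.0530 to 0.0598). Without the replicate 4 pair the change was 0.49 ± 0.14. Taldo1, transaldolase, stood at 535, 689 and 609 CPM in KCl, against 443, 557 and 491 CPM in control. Control 2 was above KCl 1, and the change of 0.30 ± 0.12 did not pass (edgeR adjusted p = 0.141). Tkt, transketolase, stood at 1096, 1122 and 1178 CPM in KCl, against 1176, 1191 and 1095 CPM in control. Its libraries overlapped, with an interval from -0.17 to 0.12, and Rpia, ribose phosphate isomerase, did not pass (-0.09 ± 0.11).

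Phosphoglucomutases link glucose 6-phosphate to glycogen. The gene the table calls Pgm2 (ENSMUSG00000025791, which RefSeq lists as Pgm1) stood at 50.4, 72.0 and 59.1 CPM in KCl, against 103, 72.0 and 91.1 CPM in control. KCl 2 and control 2 were nearly equal and the other libraries were apart, and the change of -0.55 ± 0.18 did not pass (edgeR adjusted p = 0.0711). It passed as lower in DESeq2 (0.0134) and without control 2 (0.0383). The gene the table calls Pgm1 (ENSMUSG00000029171, RefSeq's Pgm2) did not pass (-0.07 ± 0.05). The table's Pgm2 took 56.6% ± 4.05 of the FPKM of both in KCl and 64.6% ± 3.39 in control.

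A group of genes had KCl 1, KCl 2 and control 4 as their 3 highest libraries. They numbered 6 of the 33, namely Slc2a1, Slc2a3, Aldoa, Aldoc, Pfkfb2 and Eno1, and were picked out after their values were seen. Aldoa, the main aldolase (5 pseudogene copies), stood at 1427, 1575 and 1169 CPM in KCl, against 1042, 1274 and 1465 CPM in control. Aldoc, the brain-type aldolase, stood at 117, 103 and 72.8 CPM in KCl, against 71.3, 69.1 and 104 CPM in control. In both, replicates 1 and 2 were higher in KCl and replicate 4 was higher in control. The log2 fold changes were 0.14 ± 0.16 for Aldoa and 0.26 ± 0.23 for Aldoc, and neither passed in edgeR. The opposite set, with KCl 4, control 1 and control 2 highest, held 4 of the 33, namely Pfkfb3, Tkt, Rpia and Pdha1. Rpia, for example, stood at 66.6, 64.1 and 77.2 CPM in KCl, against 78.7, 77.9 and 64.8 CPM in control. The choice of these sets fixes how leaving out the replicate 4 pair moves them: upwards in the first set, from 0.14 ± 0.08 (Eno1) to 0.64 ± 0.09 (Aldoc) without the pair, and downwards in the second, from -0.26 ± 0.08 (Rpia) to -0.09 ± 0.09 (Tkt). These values restate the choice and support nothing further. KCl 1, KCl 2 and control 4 were also highest for Slc16a3, the lactate exporter MCT4, at 249.7, 305 and 193 CPM in KCl, against 172, 202 and 267 CPM in control. The part that the dependence of replicate 4 on the other libraries has in these values was not tested.

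**Figure D4:**
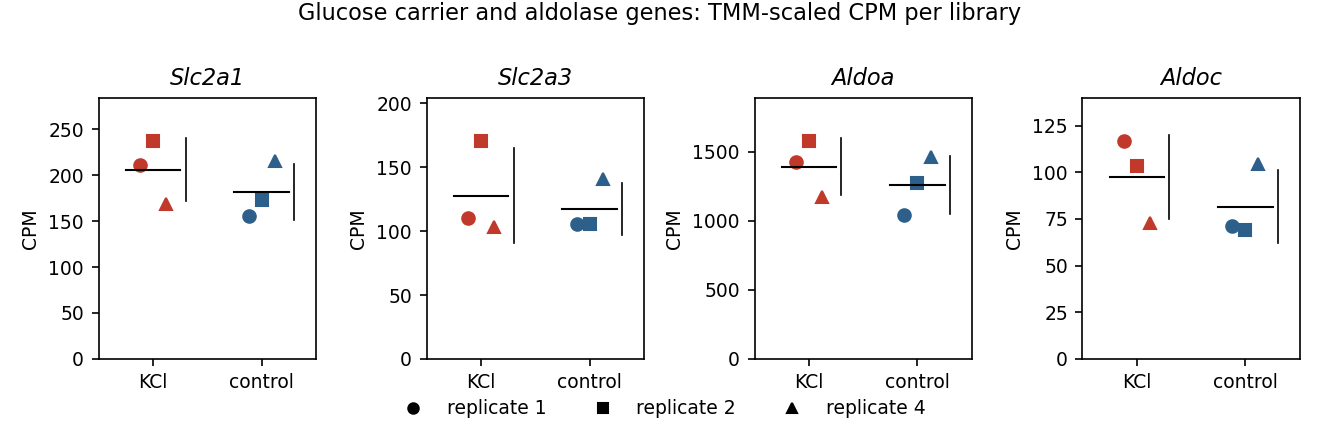
TMM-scaled CPM of Slc2a1, Slc2a3, Aldoa and Aldoc, 1 panel each with an axis from 0, KCl on the left and control on the right; points are libraries, horizontal lines group means and vertical lines ± 1 SD. KCl 4 (red triangle) is the lowest KCl library in each panel and control 4 (blue triangle) the highest control library, for example at 169 CPM in KCl 4 and 215 CPM in control 4 for Slc2a1.

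**Figure D5:**
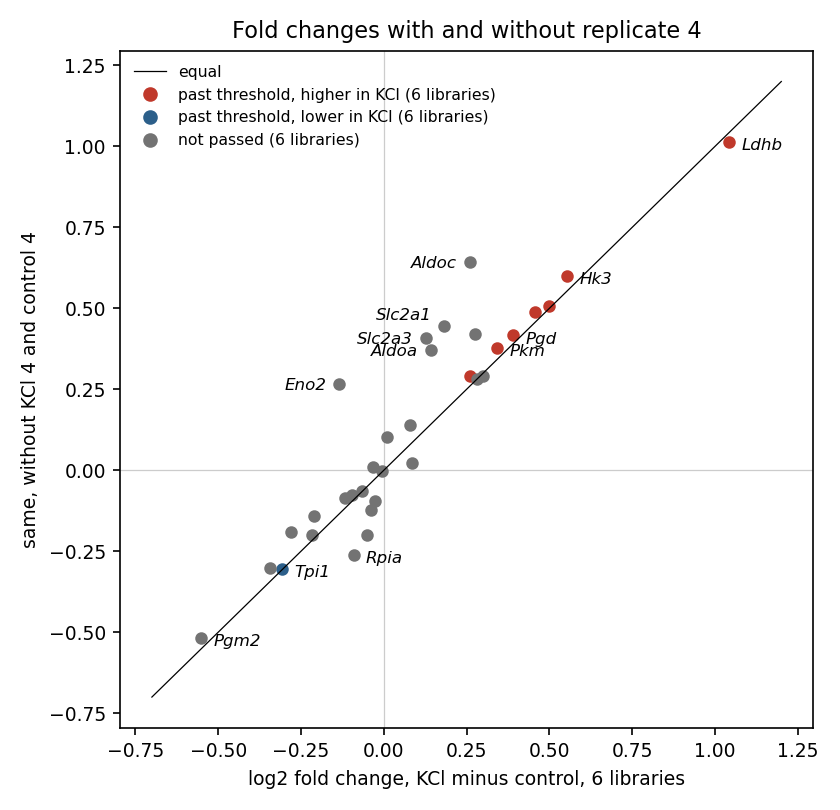
Log2 fold change (KCl minus control) of each of the 33 genes with all 6 libraries (x axis) and without KCl 4 and control 4 (y axis), with a line where both are equal; the axes share 4 libraries. The called genes lie near the line, as Hk3 at 0.55 and 0.60. A call with 6 libraries favours genes whose replicate 4 lies with the rest, so this nearness is no separate support. Aldoc (0.26 and 0.64), Slc2a1 (0.18 and 0.45), Slc2a3 (0.13 and 0.41) and Aldoa (0.14 and 0.37) lie above the line. Rpia (-0.09 and -0.26) lies below it. The choice of these genes by the order of the libraries fixes this.

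Genes next to these pathways were counted in 6 lists. Over all tested genes 12.4% were higher and 10.5% were lower. Of 11 tested genes for other glucose carriers and glycolytic isoforms, 1 was higher, 2 were lower and 8 did not pass. Adpgk, a glucokinase that uses ADP, stood at 195, 242 and 205 CPM in KCl, against 146, 149.8 and 152 CPM in control (log2 fold change 0.52 ± 0.09; edgeR adjusted p = 0.00977). The scarce testis-type Ldhc (-1.96 ± 0.33) and Pfkfb1 (-0.50 ± 0.12) were lower, and the urate and sugar carrier gene Slc2a9 just missed the threshold (0.54 ± 0.15; edgeR adjusted p = 0.0505). Ldhc averaged 0.497 CPM in KCl and 1.96 CPM in control. Pfkfb1 lost its call without KCl 1, KCl 4, control 2 or control 4 (edgeR adjusted p up to 0.11).

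Of 18 genes for lactate and pyruvate carriers and pyruvate dehydrogenase control, 2 were higher, 2 lower and 14 did not pass. Each direction held 11.1% of the list, against 12.4% (higher) and 10.5% (lower) of all tested genes. Mpc2, a subunit of the mitochondrial pyruvate carrier, stood at 59.5, 68.6 and 60.7 CPM in KCl, against 40.1, 39.2 and 42.0 CPM in control (0.64 ± 0.07; edgeR adjusted p = 0.00422). The monocarboxylate carrier gene Slc16a7 was higher as well (0.82 ± 0.14). Bsg, the chaperone of lactate carriers, was lower at 157, 155 and 156 CPM in KCl, against 220.1, 195 and 206 CPM in control (-0.41 ± 0.06; edgeR adjusted p = 0.00617). Pdk3, a kinase that inhibits pyruvate dehydrogenase, was lower too (-0.39 ± 0.07), but missed the threshold without KCl 4 (edgeR adjusted p = 0.0536).

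Of 13 other pentose phosphate and NADPH genes, 3 were higher, 2 lower and 8 did not pass. The shares were 23.1% higher and 15.4% lower, against 12.4% and 10.5% of all tested genes. The higher genes were the transhydrogenase gene Nnt (0.62 ± 0.06), the malic enzyme gene Me1 (1.16 ± 0.14) and the isocitrate dehydrogenase gene Idh1 (0.44 ± 0.06). Gene counts do not show whether these RNAs give working enzymes. Idh1 stood at 271, 277 and 261 CPM in KCl, against 208, 185 and 204 CPM in control. The mitochondrial malic enzyme gene Me2 (-0.36 ± 0.04) and the sedoheptulose kinase gene Shpk (-0.44 ± 0.11) were lower. For Me2 the libraries ran from 92.2 to 95.8 CPM in KCl and from 119 to 123 CPM in control. All 5 had an edgeR adjusted p of 0.0335 or less. Shpk lost its call without KCl 1, KCl 4, control 1 or control 4 (up to 0.131), and the others kept theirs with any 1 library left out.

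Of 16 glycogen and hexosamine genes, 4 were lower (25%, against 10.5% of all tested genes) and 12 did not pass. In 7 of the 16 every KCl library was below every control library (43.8%, against 18.4% of all tested genes). Gyg, the glycogenin that primes glycogen, stood at 130.2, 139 and 137 CPM in KCl, against 313, 201 and 258 CPM in control (-0.93 ± 0.16; edgeR adjusted p = 0.0102). Pygm (-1.23 ± 0.24), a glycogen phosphorylase scarce here, Gfpt1 (-0.44 ± 0.10), which opens the hexosamine branch, and Pmm1 (-0.30 ± 0.06), a phosphomannomutase, were also lower. These 3 lost their calls without KCl 4 or control 4, Pygm also without KCl 2, Gfpt1 without KCl 1 and Pmm1 without KCl 2 or control 1 (edgeR adjusted p up to 0.055 for Pygm, 0.075 for Gfpt1 and 0.0953 for Pmm1). Of 4 gluconeogenesis genes, the scarce Fbp1 was higher (1.44 ± 0.24), Pck2 was lower (-0.31 ± 0.07) and 2 did not pass. Pck2 lost its call without control 4 or any 1 KCl library (up to 0.0845).

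Of 15 regulators of these genes, 2 were higher (13.3%, against 12.4% of all tested genes) and 13 did not pass. Epas1, the gene of HIF-2 alpha, averaged 4.46 ± 0.51 CPM in KCl and 2.15 ± 0.257 CPM in control (1.06 ± 0.15; edgeR adjusted p = 0.00692), and Mlxip, a glucose-sensing factor, changed by 0.20 ± 0.05 but lost its call without any 1 library (edgeR adjusted p from 0.0707 to 0.109). Bhlhe40 missed the threshold (-0.26 ± 0.07; edgeR adjusted p = 0.0556). Hif1a, given for its role, stood at 212, 233 and 197 CPM in KCl, against 191, 198 and 216 CPM in control, with an interval from -0.11 to 0.28. Without the replicate 4 pair, the smallest edgeR adjusted p in these 6 lists was 0.06, for Nnt.

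Markers of several myeloid and other cell types moved between the groups. With all 6 libraries 12.4% of all tested genes were higher and 10.5% were lower. Of 12 neutrophil markers 4 were higher and 8 did not pass, and their summed level was 18735 to 26478 CPM in KCl and 14958 to 17312 CPM in control. Of 7 monocyte markers 5 were higher and 2 did not pass, with sums of 2138 to 2411 CPM in KCl and 1440 to 1706 CPM in control. Of 8 dendritic cell markers 5 were lower and 3 did not pass, with sums of 4121 to 5139 CPM in KCl and 5535 to 7433 CPM in control. Of 5 eosinophil markers 2 were lower and 3 did not pass, with sums of 881 to 1054 CPM in KCl and 1974 to 2176 CPM in control. Most of the eosinophil sum is Epx and Prg2, the 2 lower markers. Macrophage markers (2 of 7 higher) summed to 648 to 752 CPM in KCl and 518 to 651 CPM in control. Of 6 defining myeloid markers 4 were higher, with sums of 12492 to 15473 CPM in KCl and 8144 to 9861 CPM in control. Most of that sum is Lyz2, at 8733 to 11559 CPM in KCl and 4765 to 5928 CPM in control, and a further marker, Itgam, was not used because its symbol has 2 entries in the table. Erythroid markers were near 0, at sums of 2.91 to 3.37 CPM in KCl and 1.78 to 3.09 CPM in control, and lymphocyte markers summed to 35.9 to 41.8 CPM in KCl and 17.3 to 23.1 CPM in control. Without the replicate 4 pair the markers that passed in edgeR in any of these lists were C1qc (macrophage, higher) and Prg2 (eosinophil, lower). At an unadjusted p under 0.05 in edgeR there were then 9 neutrophil, 6 monocyte, 4 macrophage, 5 defining myeloid and 2 lymphocyte markers higher and 4 dendritic cell markers lower. Of the eosinophil markers 2 were higher and 2 lower. One direction each held for 1 stromal and endothelial marker (higher) and 1 basophil and mast cell marker (lower). At that threshold 16.2% of all genes were higher and 13.6% lower. The part of these cell types in the changes of Hk3, Pkm, Pgd and the other called genes was not tested.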

How the data were processed

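Messenger RNA was sequenced in 6 libraries, 3 from KCl-treated and 3 from control cultures, grouped by their treatment labels. Whether replicates were separate mice or cultures is not in the labels, so the p-values speak only for the spread among these samples, and it may be technical. Per the submitters' processing notes, the tools were HISAT2 2.0.4, StringTie 1.3.3b and edgeR and the build was mm10; how reads were counted, strand included, is not given in the sources used here, and reads of overlapping or antisense genes cannot be separated. The authors deposited whole-number read counts and FPKM (scaled to gene length and library size) per gene and library for 19162 genes. FPKM was used only for levels and shares. Of the gene IDs, 19063 matched GENCODE M21 (mm10), the source of coordinates.

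The count test used edgeR 4.0.16 in R 4.3.3: filterByExpr (minimum count 10, minimum total 15) left 13326 genes, libraries were scaled by TMM, and KCl was compared with control by its quasi-likelihood test (robust, 2-sided). P-values were adjusted by Benjamini-Hochberg over all tested genes, with a threshold of 0.05. Log2 fold changes are KCl minus control with their standard error.

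The genes and lists were chosen with earlier results of these data known. Values per library are given for genes past the threshold, the 8 of the 33 with the highest FPKM and the main isoform of each step; of each neighbouring list, up to 4 genes with the smallest p are named; others named were chosen after their values were seen. The settings also tried were scaling by RLE, the upper quartile or library size, no filter, a filter at a mean CPM of 5, DESeq2 1.42.0, limma-voom (limma 3.58.1), a block for the replicate number, leaving out each library and leaving out replicate 4. A batch term for replicate 4, and DESeq2 and limma-voom without replicate 4, were added after seeing the data.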

Additional observations from a re-analysis of the deposited data

How the results depend on the processing

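Of the 33 fold changes, 0 reversed a call's direction in any alternative run. For the genes called with all 6 libraries, leaving out libraries could not reverse it, since their groups did not overlap. Genes past the threshold numbered 3057 (1655 higher, 1402 lower) with all 6 libraries, 1439 to 2851 with 1 library left out (852 to 1495 higher, 551 to 1356 lower), 1573 with replicate 4 as a batch term (922 higher, 651 lower; chosen after seeing the data) and 62 without replicate 4 in both groups (45 higher, 17 lower). Upper-quartile scaling gave 1422 higher and 1735 lower. Of the 33 genes, 7 were higher and 1 lower; leaving out 1 library gave 2 to 6 higher and 0 to 2 lower. The batch term gave 2 higher (Hk1 and Hk3) and 0 lower, with 7 and 3 at an unadjusted p under 0.05 in edgeR (15.1% and 13% of all genes). Without replicate 4 in both groups edgeR gave 0 higher and 0 lower, with 10 and 2 at an unadjusted p under 0.05 (16.2% and 13.6% of all genes), and DESeq2 gave 4 and 0. Upper-quartile scaling called 3 lower (Tpi1, Pfkl and Gapdh) and DESeq2 3 (Tpi1, Gapdh and Pgm2). The median log2 fold change of the 33 genes was 0.01, and 0.10 without replicate 4; the Slc2a1 share of carrier FPKM differed by -3.86 percentage points, KCl minus control, and by -0.80 without replicate 4. Ldhb lost its call under RLE, upper-quartile and library-size scaling, without a filter and in limma-voom. The cause of these changes was not tested.

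With the replicate number as a block, 1678 genes passed (978 higher, 700 lower), and of the 33 genes 3 were higher (Hk3, Pgd and Taldo1) and 0 lower, with 9 and 2 at an unadjusted p under 0.05 in edgeR (15.8% and 13.5% of all genes). The deviations of same-numbered libraries from their group means correlated at 0.02, -0.06 and -0.89 for numbers 1, 2 and 4. Replicate 4 depends on the other libraries and enters these means. The correlations therefore cannot decide whether the numbers pair the samples. The scarce Eno2, at 0.236 FPKM in KCl and 0.267 FPKM in control, had the widest interval of the 33 genes (-1.24 to 0.97 on the log2 scale).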
